A study of Homo sapiens with 6 samples.

Results

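AP-1 is a family of dimeric transcription factors, and 10 of its genes were examined here: FOS, FOSB, FOSL1 and FOSL2 of the FOS group, JUN, JUNB and JUND of the JUN group, ATF3 and BATF3, and the small MAF gene MAFF. They were taken by name, through the table of gene names, from the 57500 Ensembl genes of the series. All 10 passed the filter on low values and were among the 15341 genes tested. RNA came from HEK293T, an established human embryonic kidney line that carries the SV40 large T antigen and takes up plasmid DNA readily. The 3 control libraries, titled mock and labelled wild type with vector control, were compared with 3 libraries of cells given, with PolyJet, a pcDNA3 plasmid that expresses the arginine methyltransferase PRMT1. The labels leave out whether control cells received an empty plasmid and how long after transfection cells were harvested. All libraries are of 1 line kept in the same serum-containing medium, and nothing says whether the replicates were separate cultures, so the p-values refer to library-to-library spread, which may be technical. In bulk RNA, fewer cells that express a gene and less of its RNA per cell cannot be told apart.

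AP-1 proteins share a basic region that reads DNA and a leucine zipper through which they pair. FOS proteins cannot pair with each other and bind DNA as partners of JUN proteins, whereas JUN proteins also pair among themselves. FOS, FOSB, JUN, JUNB, ATF3 and MAFF are known as early response genes. Their short-lived messengers rise within minutes to hours of serum, growth factors or stress. JUND is known as a more constant member, and FOSL1 and FOSL2, which lack the strong activation domain of FOS, are known as later members of the response. The comparison asks which messengers of this family change when PRMT1 is overexpressed.

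PRMT1 itself, the check of the labels, ranged from 368 to 397 TPM in controls and from 62895 to 84923 TPM with the plasmid. TPM is a transcript level per length, scaled to a sum of 1000000 per library, so the large share of PRMT1 comes off the TPM of other genes. The libraries hold between 18196835 and 23163955 reads as recovered from the values. Over all tested genes the fold change had a median of 0.30 on the log2 scale. It was 0.01 after median-of-ratios scaling and -0.01 after quantile normalization, and changes are best read relative to that shift. With PRMT1 taken out before rescaling the median was higher, at 0.40, so the share of PRMT1 lowers it. The source of the shift was not tested. The labels call the cells epithelial and kidney. Of the markers of a human embryonic kidney line, all 9 were detected, with KRT8 at 75.6 to 84.0 TPM and the early kidney gene PAX2 at 3.40 to 4.14 TPM. Of these 9, SALL1 rose and VIM, NEFL and NEFM fell past the threshold. Of 7 markers of mature kidney epithelium, LRP2 alone was tested (2.06 to 4.10 TPM). Summed markers reached at most 0.32 TPM for blood cells and 0.113 TPM for endothelium. Of the fibroblast collagen genes COL1A1 was at 9.27 to 16.7 TPM and fell, while COL1A2 stayed at or under 0.0451 TPM. The part of these markers in the results below was not tested.

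The promoters of the family hold related control elements, which are shown here because the genes that carry the same element did not all move the same way. RefSeq windows on GRCh38.p14, from 250 bases before to 50 bases after a start site, were found for 8 of the 10 genes, not for FOSL1 and BATF3. They were searched on both strands for the cAMP response element core TGACGT, its full palindrome TGACGTCA, the AP-1 element TGANTCA and the JUN-type element TGACATCA. The core is contained in the palindrome. Of 34943 promoter windows of this length, 7.97% held the core, 1.84% the palindrome, 7.72% the AP-1 element and 2.61% the JUN-type element. The stretches below are given 5′ to 3′ on the strand of the gene, with matches in capitals. They end where the exons of GENCODE 29 begin, or just before the RefSeq start site where that comes first, as in JUNB. Where exons cover the element only 30 bases around it are shown.
FOS, chr14:75278578-75278773, plus strand: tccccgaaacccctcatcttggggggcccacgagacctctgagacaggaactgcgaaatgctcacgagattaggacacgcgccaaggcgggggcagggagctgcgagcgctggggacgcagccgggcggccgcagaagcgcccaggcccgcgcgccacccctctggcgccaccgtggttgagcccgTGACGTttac
FOSB, chr19:45467746-45467994, plus strand: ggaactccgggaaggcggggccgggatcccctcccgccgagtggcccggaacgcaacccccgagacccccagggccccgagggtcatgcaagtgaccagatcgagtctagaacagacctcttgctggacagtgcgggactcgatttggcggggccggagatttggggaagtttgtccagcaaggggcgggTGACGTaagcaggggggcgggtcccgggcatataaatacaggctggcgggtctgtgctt
FOSL2, chr2:28392608-28392801, plus strand: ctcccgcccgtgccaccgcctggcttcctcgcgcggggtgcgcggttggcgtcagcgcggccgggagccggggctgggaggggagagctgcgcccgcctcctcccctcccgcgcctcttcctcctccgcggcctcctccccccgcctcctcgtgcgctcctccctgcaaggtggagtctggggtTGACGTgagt
MAFF, chr22:38201931-38201960, plus strand: ccgggtcggTGACGTCAccgcatgactggg
JUND, chr19:18281623-18281872, minus strand: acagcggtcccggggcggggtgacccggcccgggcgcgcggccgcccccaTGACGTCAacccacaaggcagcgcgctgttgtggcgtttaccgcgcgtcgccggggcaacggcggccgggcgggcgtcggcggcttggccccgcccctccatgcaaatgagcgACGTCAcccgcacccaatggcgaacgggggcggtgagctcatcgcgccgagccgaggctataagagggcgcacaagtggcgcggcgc
JUNB, chr19:12791236-12791485, plus strand: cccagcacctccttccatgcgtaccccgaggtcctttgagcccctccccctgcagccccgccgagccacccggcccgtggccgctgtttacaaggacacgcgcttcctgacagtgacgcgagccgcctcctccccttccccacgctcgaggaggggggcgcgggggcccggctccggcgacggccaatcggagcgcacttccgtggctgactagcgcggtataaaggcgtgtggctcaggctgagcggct
JUN, chr1:58784096-58784125, minus strand: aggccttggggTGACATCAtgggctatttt
ATF3, chr1:212565157-212565333, plus strand: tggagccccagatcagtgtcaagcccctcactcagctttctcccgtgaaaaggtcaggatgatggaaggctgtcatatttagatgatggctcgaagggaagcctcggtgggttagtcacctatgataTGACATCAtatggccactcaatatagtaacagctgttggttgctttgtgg

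In these windows the core began at -64 in FOS, -60 in FOSB, -66 in FOSL2 and -54 in MAFF, counted from the start site. In MAFF it formed the palindrome, as did the first of the matches in JUND at -200, with a further core in JUND beginning at -87. The JUN-type element began at -67 in JUN and at -123 in the upstream ATF3 window. FOSL2 also held an AP-1 element that began 5 bases after its start site. The JUNB window held none of these 4 motifs. Neither did the other ATF3 window, whose start site is 212615018 on chromosome 1, nor the other MAFF window. Of the 5 genes with the core, FOS, FOSB, MAFF and JUND fell and FOSL2 rose. Of the pair with the JUN-type element, JUN rose and ATF3 was slightly lower. A match describes the letters of the window and is not evidence of binding.

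With PRMT1, 6 of the 10 genes fell and 3 rose past an adjusted p of 0.05 (limma's moderated test, Benjamini-Hochberg adjustment over every tested gene). By the same rule 49% of the 15341 tested genes passed in either direction, 8.64% fell and 40.3% rose. The genes that fell were FOS, JUNB, FOSB, MAFF, JUND and, by a small margin, ATF3. The genes that rose were FOSL1, FOSL2 and JUN, and BATF3 did not pass. The 3 values of each group were separate for 9 of the 10 genes, lower with PRMT1 for 6 and higher for 3, where 61.4% of all tested genes were separate, 11.6% lower and 49.8% higher. The counts changed little with the scaling while the background changed more. After median-of-ratios scaling 6 members fell and 2 rose, beside 24.1% and 23.5% of all tested genes. After quantile normalization 5 fell and 3 rose, beside 19.4% and 20.3%. After GC correction 6 fell and 3 rose, beside 25.4% and 23.4%. With PRMT1 taken out before rescaling 5 fell and 3 rose, beside 5.74% and 49.2%. The log2 fold changes of the 10 genes had a median of -0.56. Their summed level was 2834.7 to 2918.2 TPM in controls and 2909.9 to 2945.0 TPM with PRMT1, ranges that overlap. Other scalings separated the groups in opposite directions. The sums of all PRMT1 libraries lay below all controls after median-of-ratios scaling, and above all controls with PRMT1 taken out before rescaling.

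**Figure D1:**
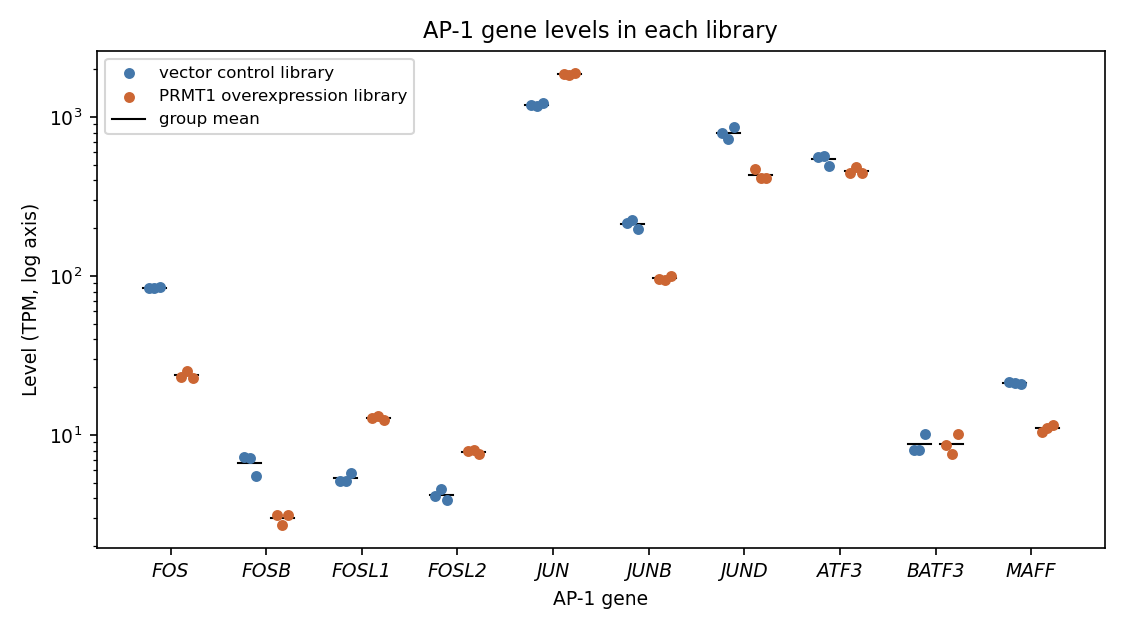
Level of each AP-1 gene in TPM on a log axis, with 1 point per library and a bar at the mean of the 3 libraries of a group. The points of the groups are apart for 9 genes and mixed for BATF3, with FOS falling from 84.7 to 23.8 TPM on average and FOSL1 rising from 5.37 to 12.7 TPM.

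FOS, the prototype early response gene (ENSG00000170345, chromosome 14, 75278774 to 75282230, plus strand, GRCh38 with GENCODE 29), showed the largest fall of the family. The control libraries gave 84.7, 84.5 and 84.9 TPM, and the PRMT1 libraries gave 23.1, 25.4 and 23.0 TPM. The controls were almost equal, and every PRMT1 library lay far below them. Means were 84.7 ± 0.198 TPM without and 23.8 ± 1.36 TPM with PRMT1 (SD, n = 3 each), 3.55-fold apart. The log2 fold change of TPM + 1 was -1.79 (SE 0.08, limma adjusted p = 3.12e-05), lower than in all but 0.2% of the tested genes. It rested on 4957 recovered reads over the controls and 1443 over the PRMT1 libraries.

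FOSB, the closest relative of FOS (ENSG00000125740, chromosome 19, 45467995 to 45475179, plus strand), also fell, from a far lower level. It measured 7.25, 7.19 and 5.56 TPM in controls, against 3.14, 2.71 and 3.13 TPM with PRMT1. Control library 3 was the lowest control and still above all PRMT1 libraries. The fall was 2.23-fold, or -0.94 on the log2 scale (SE 0.14, adjusted p = 0.00144), on 671 against 310 reads. With a pseudocount of 5 TPM it was -0.54 (adjusted p = 0.00162).

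FOSL1 and FOSL2, which encode the FOS-related proteins FRA1 and FRA2, moved the other way. FOSL1 (ENSG00000175592, chromosome 11, 65892049 to 65900573, minus strand) measured 5.16, 5.16 and 5.79 TPM in controls, against 12.8, 13.1 and 12.4 TPM with PRMT1. All PRMT1 libraries lay above all controls, and the mean was 2.37-fold higher (log2 fold change 1.11, SE 0.10, adjusted p = 0.000221). FOSL1 was the member with the largest rise, on 183 reads over the controls and 450 over the PRMT1 libraries. FOSL2 (ENSG00000075426, chromosome 2, 28392448 to 28417312, plus strand) measured 4.11, 4.57 and 3.89 TPM in controls, against 7.89, 8.11 and 7.62 TPM with PRMT1. The groups were again separate, with a 1.88-fold higher mean (log2 fold change 0.78, SE 0.11, adjusted p = 0.00125). The change of FOSL2 was smaller under 3 other scalings, at 0.47 after median-of-ratios scaling, 0.50 after GC correction and 0.31 after quantile normalization (adjusted p = 0.0360). That of FOSL1 was 0.65 after quantile normalization (adjusted p = 0.00349). Since 40.3% of all tested genes rose, these rises are set in that background: FOSL2 lay at the 81.2 percentile of all fold changes and FOSL1 at the 92.8 percentile.

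The make-up of the FOS group differed between the conditions. The summed TPM of its 4 genes went from 100.9 ± 0.699 to 47.4 ± 1.65 (SD, n = 3 each). FOS made up 83.9 ± 0.762% of that sum in the controls and 50.2 ± 1.21% in the PRMT1 libraries. FOSL1 went from 5.32 ± 0.398% to 26.9 ± 0.402% and FOSL2 from 4.15 ± 0.323% to 16.6 ± 0.196% (SD, n = 3 each). FOSB held 5.56 to 7.16% of the sum in controls and 5.50 to 6.78% with PRMT1, ranges that overlap.

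JUN, the founding JUN gene (ENSG00000177606, chromosome 1, 58780788 to 58784327, minus strand), was the most abundant member and rose. It measured 1187, 1177 and 1228 TPM in controls, against 1861, 1854 and 1886 TPM with PRMT1. The spread within each group was small beside the gap between them. Means were 1197 ± 27.4 TPM without and 1867 ± 16.4 TPM with PRMT1 (SD, n = 3 each), a 1.56-fold rise (log2 fold change 0.64, SE 0.05, adjusted p = 0.000137). Its fold change lay at the 73.8 percentile of all tested genes. JUN stood at rank 131 of the tested genes in the controls, with 76620 reads there and 123470 in the PRMT1 libraries. The call was lost after median-of-ratios scaling, where the log2 fold change was 0.28 (adjusted p = 0.0522).

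JUNB, a JUN-group gene that can restrain JUN (ENSG00000171223, chromosome 19, 12791496 to 12793315, plus strand), fell 2.20-fold. It measured 216, 224 and 199 TPM in controls, against 95.3, 95 and 99.6 TPM with PRMT1. All PRMT1 values lay below all controls (log2 fold change -1.13, SE 0.07, adjusted p = 6.99e-05). JUNB shares 14.2% of its exonic bases with HOOK2 on the opposite strand, which rose (1.03) from 3.71 to 8.49 TPM on average, far below JUNB itself. JUND (ENSG00000130522, chromosome 19, 18279760 to 18281622, minus strand) fell 1.84-fold, from 790, 731 and 868 TPM in the controls to 475, 413 and 412 TPM in the PRMT1 libraries. Control library 3 was the highest and PRMT1 library 1 the highest of its group, and the groups did not meet (log2 fold change -0.88, SE 0.09, adjusted p = 0.000303).

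In the JUN group the summed TPM of the 3 genes was slightly higher with PRMT1, at 2397 ± 34.6 against 2206 ± 83.1 in controls (SD, n = 3 each). After median-of-ratios scaling this direction turned, with sums of 2388.1, 2294.3 and 2792.9 in controls against 2214.1, 1909.3 and 2205.0 with PRMT1. The shares within the sum do not change when a library is multiplied by a common factor, as in median-of-ratios scaling. Quantile normalization and GC correction can change them. JUN held 54.3 ± 0.868% of it in the controls and 77.9 ± 1.18% in the PRMT1 libraries. JUND went from 36.0 ± 1.77% to 18.1 ± 1.28%, and JUNB from 9.67 ± 0.922% to 4.03 ± 0.118% (SD, n = 3 each). JUN, JUNB and JUND are all single-exon genes in GENCODE 29, with a GC content of 56.7, 64.9 and 69.7%. After GC correction, JUN still rose (0.43) and JUNB and JUND still fell (-1.17 and -0.82).

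**Figure D2:**
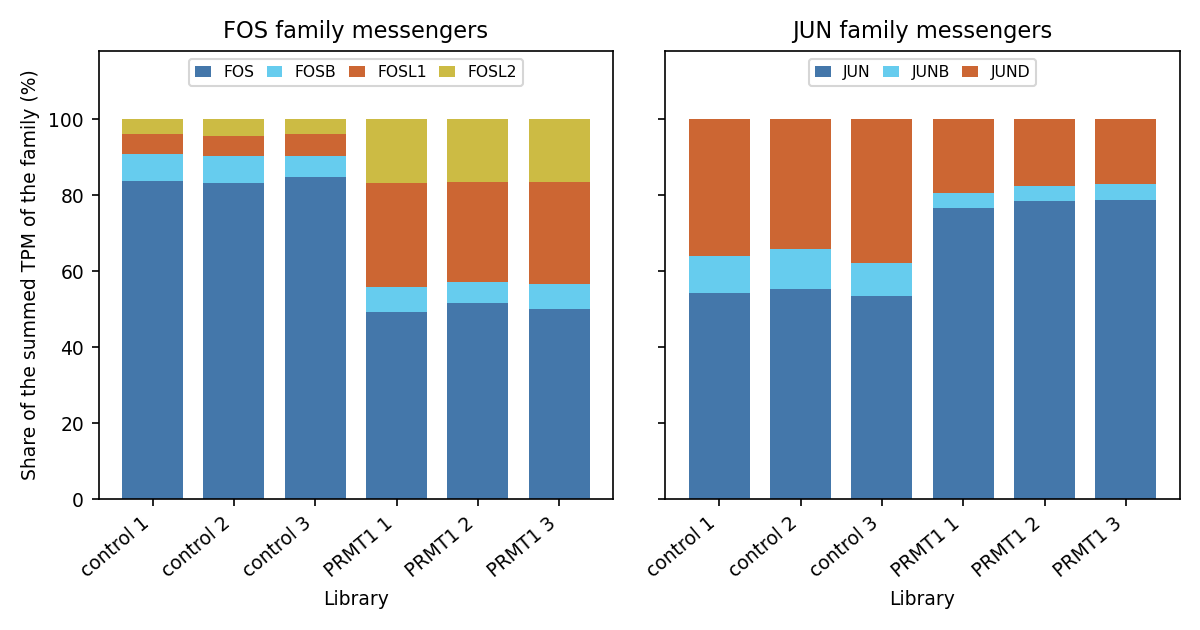
Share of each gene in the summed TPM of the FOS group (left) and the JUN group (right), with 1 stacked bar per library. FOS takes 83.3 to 84.8% of its group in controls and 49.2 to 51.5% with PRMT1, and JUN takes 53.5 to 55.2% and 76.6 to 78.7% of its group.

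ATF3, a stress-induced member that pairs with JUN proteins (ENSG00000162772, chromosome 1, 212565334 to 212620777, plus strand), was abundant in both groups and only slightly lower with PRMT1. It measured 562, 572 and 491 TPM in controls, against 448, 485 and 445 TPM with PRMT1. Control library 3 and PRMT1 library 2 were nearly equal, with the groups just separate. The log2 fold change was -0.24 (SE 0.08, 95% confidence interval -0.41 to -0.06, adjusted p = 0.0371). This call held under 9 of 16 alternatives. Among the 9 was the fit without control library 3 and PRMT1 library 2, whose ATF3 values lay nearest the other group. The call was lost under quantile normalization (-0.02, adjusted p = 0.874), after removal of PRMT1 and rescaling (-0.13, adjusted p = 0.191) and with no filter (adjusted p = 0.0852). It was also lost without control replicate 1 or 2 (adjusted p = 0.123 and 0.118) and without PRMT1 replicate 1 or 3 (adjusted p = 0.116 and 0.103). After median-of-ratios scaling the fall was larger (-0.59, adjusted p = 0.000608).

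BATF3, a small partner of JUN proteins known from dendritic cells (ENSG00000123685, chromosome 1, 212686418 to 212699985, minus strand), lies 65.6 kb from ATF3. It measured 8.01, 8.10 and 10.1 TPM in controls, against 8.63, 7.60 and 10.2 TPM with PRMT1. The values of the groups were mixed. The log2 fold change was 0.01 with a 95% confidence interval of -0.32 to 0.34 (adjusted p = 0.965), on 428 and 444 reads. Its sign depended on the scaling, with -0.31 after median-of-ratios scaling, -0.43 after quantile normalization and -0.29 after GC correction, none past the threshold.

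MAFF, a small MAF gene whose product lacks an activation domain (ENSG00000185022, chromosome 22, 38200767 to 38216511, plus strand), fell 1.94-fold. It measured 21.6, 21.4 and 21.1 TPM in controls, against 10.4, 11.1 and 11.6 TPM with PRMT1. The controls lay within 1 TPM of each other and above all PRMT1 libraries (log2 fold change -0.90, SE 0.09, adjusted p = 0.000292). Its relative MAFK fell by less (-0.40, adjusted p = 0.00471) and MAFG was at -0.05 (adjusted p = 0.641).

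**Figure D3:**
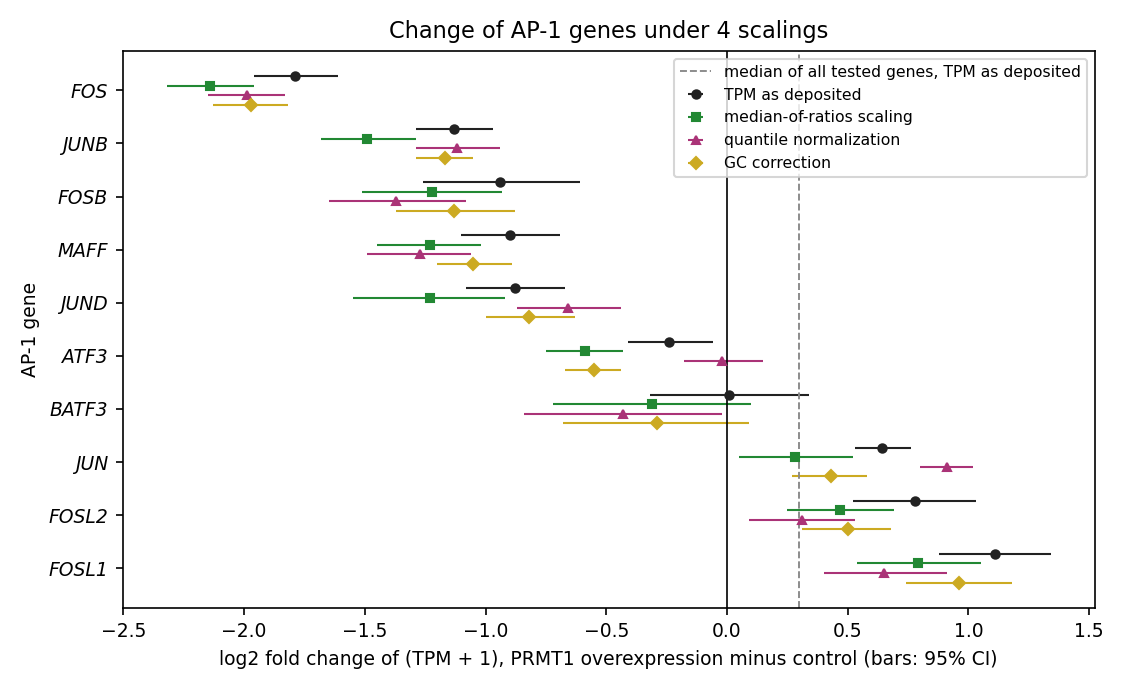
Log2 fold change of TPM + 1 for each AP-1 gene, PRMT1 minus control, with 95% confidence intervals, under 4 scalings. FOS, JUNB, FOSB, MAFF and JUND lie below 0 and JUN, FOSL2 and FOSL1 above 0 under all 4, while ATF3 runs from -0.59 to -0.02 and BATF3 from -0.43 to 0.01 over the 4, and the dashed line marks the median of all tested genes at 0.30.

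The order of levels changed with these shifts. In the controls it ran from JUN over JUND, ATF3, JUNB, FOS, MAFF, BATF3, FOSB and FOSL1 to FOSL2. The ranges of FOSB and FOSL1 overlapped there, and no other neighbours did. In the PRMT1 libraries JUN stayed the highest, followed by ATF3 and JUND, whose ranges overlapped. JUNB and FOS came next, then FOSL1 at 12.4 to 13.1 TPM, above MAFF. BATF3 and FOSL2 overlapped, and FOSB was the lowest.

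Ratios of TPM within a library stay the same when that library is multiplied by a common factor, but can change under quantile normalization or GC correction. The level of FOS was 0.0714, 0.0718 and 0.0691 of that of JUN in the controls, and 0.0124, 0.0137 and 0.0122 of it in the PRMT1 libraries. On the log2 scale of TPM + 1 this ratio was lower by a difference of -2.43 in the PRMT1 libraries, from -3.81 ± 0.03 to -6.24 ± 0.09 (SD, n = 3 each). FOS exceeded FOSL2 by 20.6, 18.5 and 21.8 times in the controls and by 2.92, 3.13 and 3.02 times in the PRMT1 libraries. JUN exceeded JUND by 1.5, 1.61 and 1.42 times in the controls and by 3.92, 4.50 and 4.58 times in the PRMT1 libraries. ATF3 was at 0.474, 0.486 and 0.400 of JUN in the controls and at 0.241, 0.262 and 0.236 of it in the PRMT1 libraries. FOSL1 and FOSL2, which both rose, had a ratio of 1.26, 1.13 and 1.49 in the controls and of 1.62, 1.61 and 1.62 in the PRMT1 libraries. JUNB and JUND, which both fell, had a ratio of 0.273, 0.306 and 0.230 in the controls and of 0.201, 0.230 and 0.242 in the PRMT1 libraries. Of the 6 ratios, 5 were separate between the groups and that of JUNB to JUND overlapped. An exact two-sided permutation test gave p = 0.1 for each of the 5, the smallest that 3 against 3 allows (0.12 after Benjamini-Hochberg adjustment over the 6), and p = 0.3 for JUNB to JUND.

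The members do not share 1 place in the genome. JUNB, JUND and FOSB lie on chromosome 19, as does PRMT1, and JUN, ATF3 and BATF3 lie on chromosome 1. Of 18 distinct nearest tested protein-coding neighbours outside the family, 7 rose, 5 fell and 6 did not pass. Over all tested genes 40.3% rose and 8.64% fell. Next to JUNB, PRDX2 fell (-0.42, adjusted p = 0.00148). HOOK2, which overlaps JUNB and is not among the 18, rose (1.03, adjusted p = 0.00147). On both sides of JUND, RAB3A (-0.52) and LSM4 (-0.23) fell past the threshold, while next to FOS, TMED10 was at 0.10 (adjusted p = 0.503). Next to JUN, MYSM1 rose (1.37). HOOK2 lies on the strand opposite to JUNB and shares 259 exonic bases with it, 14.2% of JUNB. No source used here gives the strand setting of the counting, so reads of that stretch cannot be told apart. FOSB, FOSL2 and MAFF also overlap genes of the opposite strand, with no shared exonic base.

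Among all tested protein-coding genes outside the family, CCN1, SGK1 and MYLIP had the profiles most like that of FOS. Likeness was the root-mean-square difference between centred log2(TPM + 1) profiles over 6 libraries, which was 0.116, 0.121 and 0.135 for them. With 2 groups of 3 libraries it mostly picks genes with a similar log2 fold change of TPM + 1, and shared regulation was not tested. In TPM itself the falls were 3.11-fold for CCN1, 5.42-fold for SGK1 and 3.35-fold for MYLIP, against 3.55-fold for FOS. CCN1, a matrix-associated early response gene, measured 81.6, 83.9 and 92.5 TPM in controls, against 28.5, 28.6 and 25.8 TPM with PRMT1. SGK1, a serum-induced kinase gene, went from 7.04 ± 0.930 to 1.30 ± 0.257 TPM (SD, n = 3 each). MYLIP, a ubiquitin ligase gene, went from 41.3 ± 5.38 to 12.3 ± 0.848 TPM (SD, n = 3 each). Closest to FOSL1 were KRI1, ZNF140 and PSPC1, with differences of 0.016, 0.028 and 0.028. KRI1 went from 21.7 ± 1.31 to 47.0 ± 0.845 TPM and PSPC1 from 17.1 ± 0.608 to 37.7 ± 0.803 TPM (SD, n = 3 each). ZNF140 went from a low 0.732 ± 0.0565 to 2.74 ± 0.157 TPM (SD, n = 3 each). That is a 3.75-fold rise, against 2.37-fold for FOSL1, which the added 1 TPM makes look alike.

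Other early response genes fell more often than they rose. Of 30 listed genes 24 were tested, of which 14 fell, 4 rose and 6 did not pass, with a median of -0.55. The shares over all tested genes were 8.64% falling and 40.3% rising. After median-of-ratios scaling 17 fell and 2 rose, beside 24.1% and 23.5% of all tested genes. EGR1, an early growth response transcription factor, fell from 37.5, 41.2 and 29.7 TPM to 3.17, 2.77 and 3.18 TPM (-3.19, adjusted p = 3.13e-05). CCN1, the nuclear protein gene CSRNP1 and the MAP kinase phosphatase gene DUSP5 fell too (-1.60, -1.24 and -0.79). MYC, a growth-promoting transcription factor gene, rose from 109, 124 and 81.6 TPM to 176, 169 and 171 TPM (0.73, adjusted p = 0.00414). BTG2 rose by 0.67 and KLF6 by 0.44, and KLF6 lost its call after median-of-ratios scaling (adjusted p = 0.414) and GC correction (adjusted p = 0.291). DUSP4 passed in TPM (0.42, adjusted p = 0.0319) but lost its call under 10 of 15 alternatives and was at -0.03 under quantile normalization (adjusted p = 0.829). EGR2, EGR3, EGR4, DUSP2, DUSP6 and SIK1 were under the filter.

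Of the other basic leucine zipper genes that can pair with AP-1 proteins, 24 of 26 were tested. Of these, 12 rose and 3 fell, beside 40.3% and 8.64% of all tested genes, with a median of 0.34, near that of all genes. After median-of-ratios scaling 8 rose and 8 fell, beside 23.5% and 24.1%. NFE2L3, CEBPG, ATF2 and CREM rose (0.92, 0.79, 0.69 and 0.67), CREM not after quantile normalization (adjusted p = 0.0871) or GC correction (adjusted p = 0.0636). ATF2, which pairs with JUN on the JUN-type element, went from 15.6, 15.5 and 13.9 TPM to 23.1, 29.3 and 22.3 TPM. DDIT3, the stress factor CHOP, fell from 98.1, 99.7 and 110 TPM to 57.3, 71.9 and 60.0 TPM (-0.70, adjusted p = 0.00136). CEBPB and MAFK fell by 0.43 and 0.40 on the log2 scale. JDP2, which represses AP-1 sites and is the gene next to FOS, rose from 1.92 to 3.75 TPM on average (0.70, adjusted p = 0.00359), but not after quantile normalization (0.27, adjusted p = 0.120). It was named after its values were seen.

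Among MAP kinases and the SRF and ELK factors, which carry signals to the FOS and JUN promoters, 29 of 31 genes were tested. Of these 12 rose and 4 fell, beside 40.3% and 8.64% of all tested genes, with a median of 0.35. Median-of-ratios scaling gave 8 rising and 11 falling, beside 23.5% and 24.1%. The SRF coactivator gene MRTFA, the JNK-activating kinase gene MAP2K4, and the kinase gene MAP3K1 rose (1.24, 1.16 and 0.98). The ERK1 gene MAPK3 fell from 188, 182 and 180 TPM to 136, 139 and 130 TPM (-0.44, adjusted p = 0.00125), and ELK1, which binds beside SRF on the FOS promoter, fell by 0.37 on the log2 scale (adjusted p = 0.00513). MAPK11 and MAP2K2 passed by a small margin (-0.54 and -0.21, adjusted p = 0.0412 and 0.0320), and MAPK11 lost its call under 9 of 15 alternatives and MAP2K2 under 9 of 16. The number that fell was 2 without control replicate 1 or 2 or PRMT1 replicate 2 or 3. It was also 2 with a replicate block, and with PRMT1 taken out before rescaling, beside 5.74% of all tested genes. After quantile normalization it was 7 and after GC correction 10, beside 19.4% and 25.4%.

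The turnover factors and coregulators of JUN and FOS were all tested. Of 21 genes, 12 rose and 2 fell, beside 40.3% and 8.64% of all tested genes, with a median of 0.37. Median-of-ratios scaling gave 7 rising and 7 falling, beside 23.5% and 24.1%. DET1, part of the COP1 ubiquitin ligase that degrades JUN, rose from 1.86, 1.89 and 1.79 TPM to 7.01, 8.44 and 6.65 TPM (1.55, adjusted p = 0.000176). ITCH, a ubiquitin ligase gene that acts on JUN and JUNB, NCOA1 and the signalosome gene COPS5 rose as well (1.11, 1.10 and 0.78). TRIB1, a COP1 adaptor gene, fell from 70.3, 70.8 and 55.4 TPM to 30.6, 32.7 and 29.6 TPM (-1.05, adjusted p = 0.000375). Without control replicate 3 the number that fell was 4, and without both that library and PRMT1 replicate 2 it was 6.

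Of 21 genes of the stress response that induces ATF3, all tested, 10 rose and 6 fell, with a median of 0.18. The shares over all tested genes were 40.3% rising and 8.64% falling. Median-of-ratios scaling gave 6 rising and 10 falling, beside 23.5% and 24.1%. EIF2AK3, TRIB3, XBP1 and ASNS rose (1.30, 1.04, 0.91 and 0.75). GADD45B, a growth arrest gene, fell from 208, 211 and 248 TPM to 99.9, 107 and 102 TPM (-1.10, adjusted p = 0.000135). GADD45A, DDIT3 and DDIT4 fell too (-0.70, -0.70 and -0.44), DDIT4 not after quantile normalization (adjusted p = 0.0538).

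Known AP-1 target genes were sparse in these cells, since 21 of 34 were tested and 13 were under the filter, among them the collagenase gene MMP1, listed at 0 in all libraries. Of the 21, 7 fell, 5 rose and 9 did not pass, with a median of -0.11. The shares over all tested genes were 8.64% falling and 40.3% rising. Median-of-ratios scaling gave 12 falling and 3 rising, beside 24.1% and 23.5%. VEGFA, which encodes an angiogenic growth factor, fell from 24.3, 24.3 and 19.8 TPM to 9.51, 9.39 and 8.86 TPM (-1.21, adjusted p = 0.000221). HBEGF, TGFB1 and the gelatinase gene MMP2 fell (-0.90, -0.67 and -0.52). LIF, GCLC, CCND1 and EZR rose (0.71, 0.66, 0.59 and 0.38). EZR lost its call after median-of-ratios scaling (0.02, adjusted p = 0.816) and GC correction (0.06, adjusted p = 0.315). LIF and GCLC lost it after quantile normalization (adjusted p = 0.169 and 0.138).

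**Figure D4:**
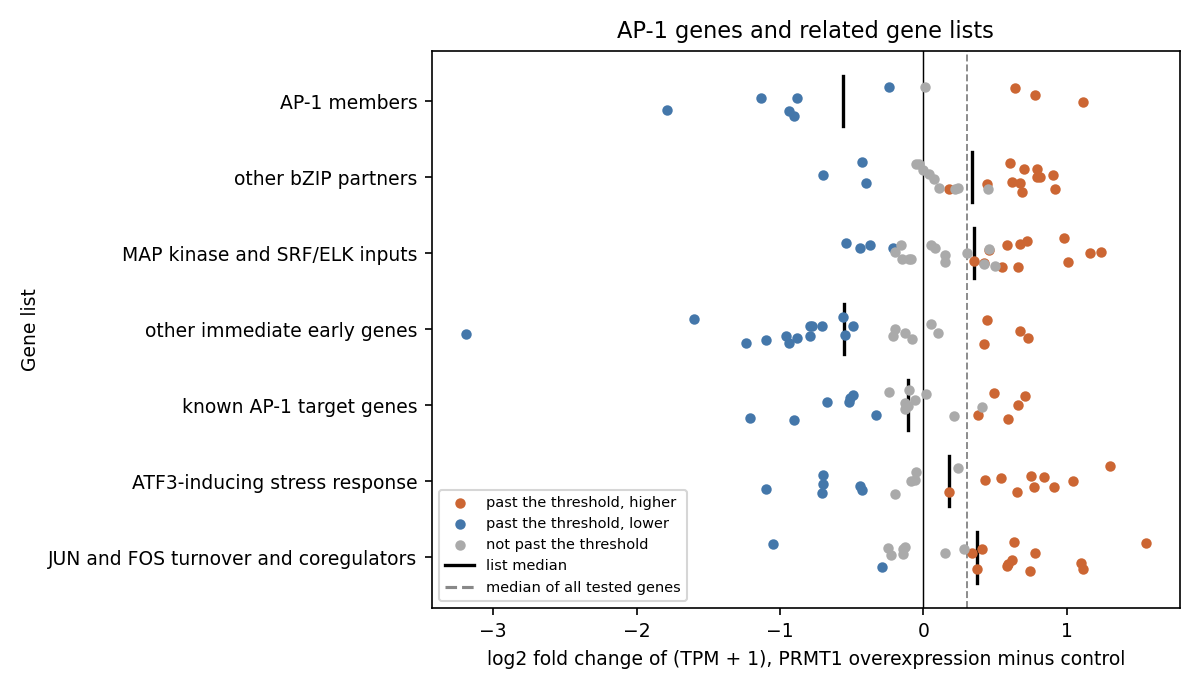
Log2 fold change of TPM + 1, PRMT1 minus control, for each tested gene of the AP-1 family and of 6 related lists, coloured by call, with a bar at each list's median and a dashed line at the median of all tested genes (0.30). The medians of the AP-1 genes (-0.56) and of the other early response genes (-0.55) lie below 0. Those of the other bZIP partners, the MAP kinase inputs and the turnover factors (0.34, 0.35 and 0.37) lie near the dashed line. Between these lie the medians of the known AP-1 target genes (-0.11) and of the ATF3-inducing stress response (0.18).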

How the data were processed

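The authors deposited TPM values per Ensembl gene for 6 libraries, each column adding up to 1000000. Tools listed, with no role or order, per the submitters' processing notes are STAR 2.5.2b, Subread 1.5.2, featureCounts and Trimmomatic 0.36, and the build is GRCh38. No source used here gives the annotation, the strand setting or the TPM computation. All columns matched 1 sample title each. Of 57500 identifiers, 40907 had a symbol in the table of gene names. Coordinates, exons and GC content came from GENCODE 29 on GRCh38, and promoter sequences from RefSeq on GRCh38.p14.

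Low TPM values times exonic length were multiples of the worth of 1 read in each library: 95.5 to 95.9% of values under 50 reads were whole within 0.05 of a read. Read numbers come from this step, and no count model was run on them. At 1 kb of exons, 0.459 to 0.526 TPM stand for 3 reads.

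The test was limma 3.58.1 (R 4.3.3; lmFit, then eBayes with a mean-variance trend, no covariate) on log2(TPM + 1), a scale that shrinks the fold changes of low genes. It took the 15341 genes that reached 1 TPM in 3 or more of 6 libraries. Benjamini-Hochberg adjustment ran over all of them, with a threshold of 0.05. The fit was tested on simulated data. The 10 genes, the 6 lists of related genes and the tests were chosen with earlier results of these data known. The text names all 10 genes, up to 4 genes per list and direction with the smallest p, and the 3 genes most like the members with the largest fall and rise. A few genes that this rule names are not reported here. Libraries of 1 group differed by more than counting noise (chi-square per degree of freedom 2.70 to 23.2), so none was taken for a duplicate. Alternatives were pseudocounts of 0.1 and 5 TPM, a filter at 5 TPM or none, quantile normalization, median-of-ratios scaling, GC correction, PRMT1 removed before rescaling, a replicate block, each library left out, and control library 3 and PRMT1 library 2, which stand apart from their groups, left out together.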

Additional observations from a re-analysis of the deposited data

How the results depend on the processing

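FOS, FOSB, JUNB, JUND, MAFF, FOSL1 and FOSL2 kept their direction and their side of the threshold under all 16 alternatives, JUN under 15 and ATF3 under 9. The number of AP-1 genes that fell was 5 or 6, and the number that rose 2 or 3. Leaving out 1 library at a time gave 5 to 6 and 3. BATF3 changed sign to -0.31, -0.43 and -0.29 under median-of-ratios scaling, quantile normalization and GC correction, and ranged from -0.09 to 0.11 with 1 library left out. DUSP4 changed sign to -0.03 under quantile normalization. Without control library 3 and PRMT1 library 2 together, 6 AP-1 genes fell and 3 rose, with ATF3 at -0.34 (adjusted p = 0.00122). These libraries hold the lowest control value and the highest PRMT1 value of ATF3. Leaving them out therefore widens its gap, and this adds no support to its call. Over the 136 distinct tested genes of the 6 lists, 34 fell and 54 rose in TPM, beside 8.64% and 40.3% of all tested genes. Median-of-ratios scaling gave 62 and 34, GC correction gave 58 falling, and quantile normalization gave 32 rising; leaving out 1 library gave 31 to 35 falling and 46 to 51 rising. Of all tested genes, 24.1% fell and 23.5% rose after median-of-ratios scaling. In that background 25.4% fell after GC correction and 20.3% rose after quantile normalization. The scaling alternatives move the median of all genes by construction. The mean summed level, PRMT1 minus control, was 190.1 TPM for the JUN group and 44.1 TPM for all 10 genes, and turned to -382.3 and -676.1 after median-of-ratios scaling, an alternative for these sums that was chosen after seeing the data. The log2 difference of FOS to JUN was -2.28 with a pseudocount of 5 TPM, and that of FOS to FOSL2 was -2.72 and -2.13 with 0.1 and 5 TPM, since the pseudocount weighs more on the lower gene. With the replicate number as a block, 6 AP-1 genes fell and 3 rose, the same counts as without it. The numbers do not pair the libraries, since deviations from the group means of same-numbered libraries correlated at -0.033, 0.059 and 0.020, and not every library correlated best with its own number. FOSB, FOSL1, FOSL2 and BATF3 rest on 58 to 374 reads per library, which limits the precision of their values, and this covers counting error only.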
